A study of Columba livia with 9 samples.

Results

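In the pigeon bursa of Fabricius (BF), 67 of 13072 listed mRNAs had their highest levels in the middle of the 3 ages sampled. They were chosen by their values in all 9 libraries. A member had a mean of at least 2 TPM over the 9 libraries, a level in each of the 3 libraries of 13D above those of the 6 libraries of 1D and 26D, and a mean at 13D with a log2 ratio of at least 0.5 to the higher of the means at 1D and 26D. The levels compared are scaled TPM, which is the TPM of an mRNA divided by the median TPM of its library and multiplied by the mean of the 9 medians. For the log2 ratio, 0.01 was added to each mean before this multiplication, which lowers the ratio slightly. Factors between means are given without this addition. The first condition on the libraries held for 248 mRNAs (1.90% of those listed), 224 of these had a mean of at least 2 TPM, and the ratio limit left out 157 of them. All 67 were kept, since the rule takes at most 150. The difference of 13D from both other stages therefore made the set and is given below as a description, with no test. With the same limits, 992 mRNAs had their peak at 1D and 112 at 26D.

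RNA was taken from the BF of 9 female White-King squabs, with no treatment stated, which were 1 day old (stage 1D), 13 days old (stage 13D) or 26 days old (stage 26D), 3 to a stage. Each library came from a different squab, was depleted of ribosomal RNA and kept the strand. The whole organ was sequenced, so that fewer cells of a type and less RNA per cell cannot be told apart. TPM values hold no counts, and the depth behind a value and its counting error are unknown. Where 3 values are given for a stage, they are those of replicates 1, 2 and 3 in this order, and errors are SD over the 3 libraries.

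The BF is the organ in which birds form their B cells. Lymphoid precursors settle in follicles that grow from its epithelium, divide there many times and diversify their immunoglobulin genes by gene conversion, which uses the machinery of homologous recombination. A dividing cell copies its DNA, repairs breaks, duplicates its centrosome and then separates its chromosomes on a spindle, and most of the genes named here are known for a step of this sequence or for chromatin, transport or signalling. The functions given are known mainly from mammals.

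The libraries differed in their median TPM, the reason for the scaling. Whether this is a factor common to all mRNAs of a library was not tested. After scaling, all listed mRNAs summed to 9.916e+05 in 26D replicate 1 and to 3.768e+05 to 6.11e+05 in the other libraries. The library median lay between 0.438 times (26D replicate 1) and 1.46 times (1D replicate 1) the mean of the 9 medians, and the most abundant lncRNA took between 13.9% and 39.0% of the TPM of a library. The tissue label was checked against markers of B cells. Of 31 markers fixed for the lineage 23 were listed, and their summed scaled TPM was 853 to 1254 at 1D, 2040 to 2145 at 13D and 1671 to 2509 at 26D. CD79B, the signalling chain of the B cell receptor, had 197.9 ± 73.3 scaled TPM at 1D, 412 ± 91.8 at 13D and 527 ± 165 at 26D, so that B cell RNA was present at all 3 stages. The markers of extracellular matrix and fibroblasts (20 listed) summed to 1557 to 2350 at 1D, 487 to 580.4 at 13D and 285 to 755 at 26D. What these shifts between stages contribute to the levels of the 67 mRNAs was not tested.

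Most of the 67 mRNAs exceeded the other stages by a small factor. The mean at 13D was 1.42 to 4.04 times that of the higher other stage, with a median of 1.56 times. For 43 members the factor was under 1.6, and for 4 it was at least 2. The lowest library of 13D stood above the highest of the other 6 by a factor of 1.003 (CAMKK2) to 1.82 (VSIG1), with a median of 1.08. This margin was under 1.1 for 38 members and over 1.5 for 3, namely VSIG1, ABCG2 and DOP1B. The set spans a wide range of abundance, from 2.80 scaled TPM at 13D for CFAP61 to 288.8 for NUCKS1, with a median of 21.8. The mean at 13D was under 10 scaled TPM for 14 members, 10 to 100 for 50 and over 100 for 3. At 26D the mean was above that at 1D for 54 members and below it for 13. Of the members, 65 were over 0.5 TPM in all 9 libraries.

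**Figure D1:**
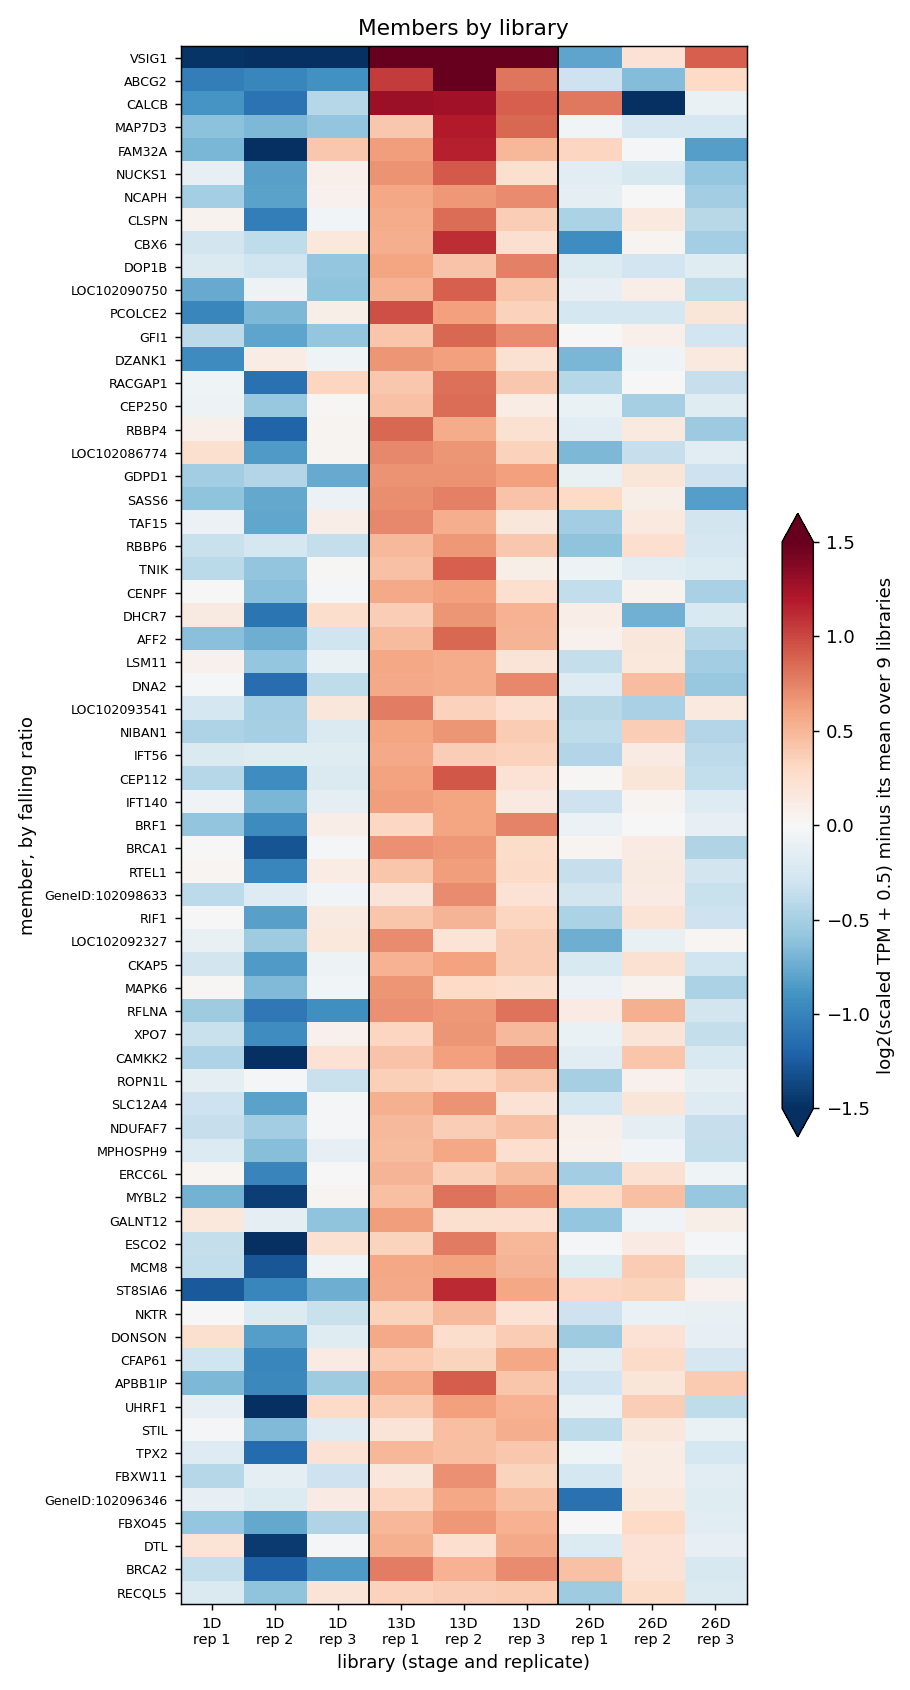
Level of the 67 members in the 9 libraries, as log2(scaled TPM + 0.5) minus the mean of the member over the 9 libraries, with members in rows by falling ratio and libraries in columns by stage and replicate. Red marks levels above the mean, blue levels below it, and colours end at 1.5 in both directions. All members are high in the 3 libraries of 13D, which the rule requires. The darkest blue outside the top rows lies mostly in 1D replicate 2, the library with the lowest level for 47 of the 67 members.

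The values at the limit of the ratio show no gap. Just inside it lay DTL with a log2 ratio of 0.51, BRCA2 with 0.50 and RECQL5 with 0.50. Just outside lay GTDC1, TMEM53 and CHD4, each with 0.50 after rounding. GTDC1 had 8.80, 8.74 and 12.1 scaled TPM at 1D, 24.4, 31.1 and 23.5 at 13D and 19.9, 21.6 and 14.2 at 26D. TMEM53 had 6.40, 5.10 and 7.53 scaled TPM at 1D, 10.1, 8.87 and 8.64 at 13D and 6.32, 7.05 and 6.02 at 26D. CHD4, a chromatin remodeller, had 22.6, 17.9 and 29.7 scaled TPM at 1D, 35.5, 42.6 and 30.2 at 13D and 20.6, 29.6 and 26.5 at 26D. All 3 have the pattern of the members and were left out by the third decimal of the ratio, which holds the 0.01 added to each mean. Without this addition, the mean at 13D was 1.416 (GTDC1), 1.420 (TMEM53) and 1.413 (CHD4) times the higher other mean. The factor was 1.420 for the member BRCA2, so that the addition decides on which side of the limit such mRNAs fall.

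The 4 largest ratios belonged to mRNAs that are not known as cell division genes. VSIG1 encodes an immunoglobulin-type junction protein of stomach epithelium in mouse and human, and its log2 ratio of 1.98 was the highest. It had 0.938, 0.217 and 0.117 scaled TPM at 1D, 12.6, 24.3 and 15.1 at 13D and 1.80, 4.14 and 6.93 at 26D. The 3 stages did not overlap, and the mean at 13D was 4.04 times that at 26D and 40.9 times that at 1D, where all 3 libraries were under 1 scaled TPM and the ratio is therefore loosely fixed. ABCG2, an efflux transporter of the plasma membrane, followed with 0.484, 0.523 and 0.575 scaled TPM at 1D, 3.67, 6.26 and 3.04 at 13D and 1.14, 0.789 and 1.98 at 26D. Its stages did not overlap either, and the mean at 13D was 3.32 times that at 26D. CALCB, a precursor of calcitonin gene-related peptide, had 3.98, 3.36 and 5.68 scaled TPM at 1D, 19.6, 19.4 and 14.9 at 13D and 13.9, 2.002 and 7.25 at 26D. The libraries of 26D were far apart, with replicate 2 the lowest of all 9 and replicate 1 close under the lowest of 13D. MAP7D3, of a family of microtubule-binding proteins, had 28.9, 27.6 and 29.3 scaled TPM at 1D, 59.2, 102 and 81.2 at 13D and 43.4, 37.2 and 36.9 at 26D. It was the most abundant of the 4 with a factor of at least 2. Its libraries of 1D were nearly equal (28.6 ± 0.865), and the stages did not overlap.

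**Figure D2:**
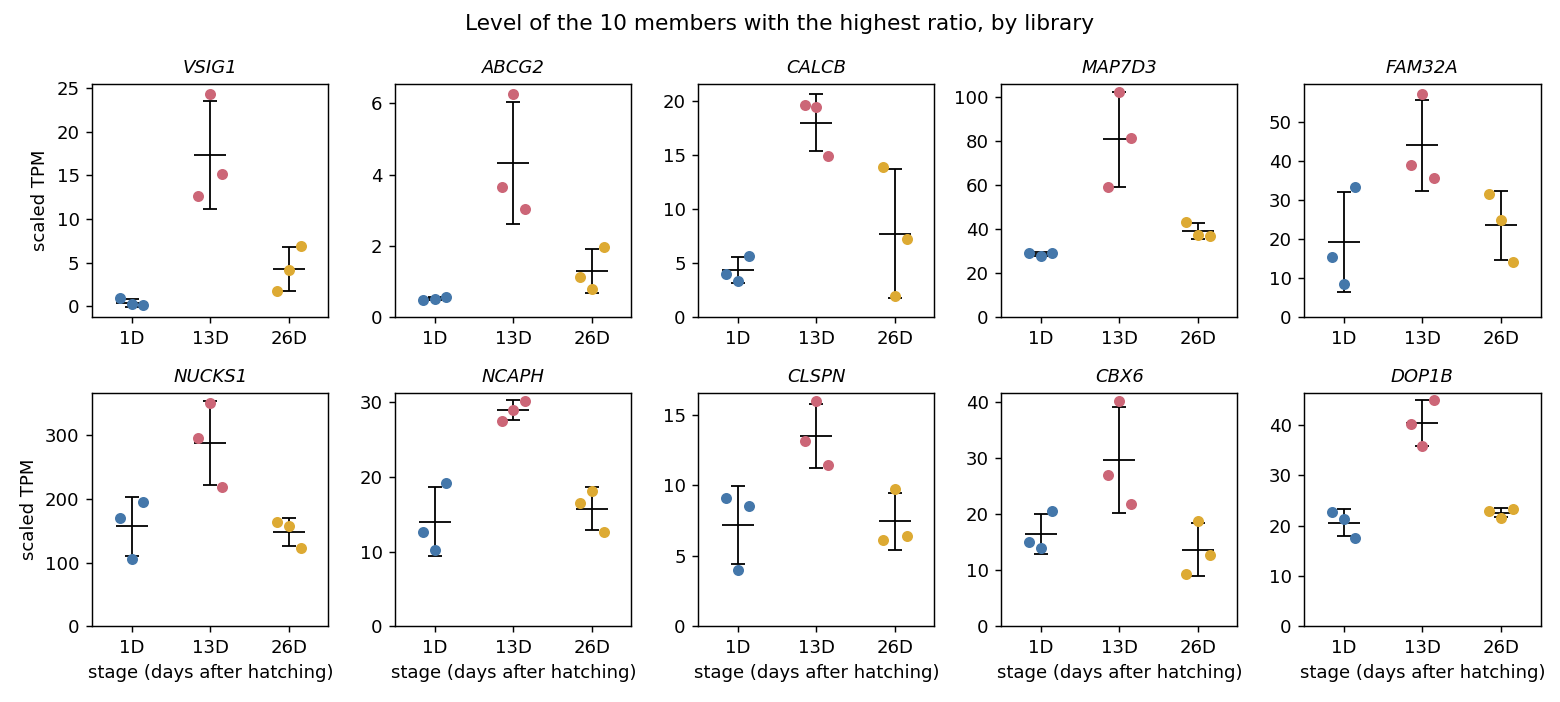
Scaled TPM of the 10 members with the highest ratio, by stage in days after hatching, with a panel and a linear axis for each gene. Points are libraries, the long bar is the mean of the 3 libraries and the whiskers are 1 SD. In VSIG1 the libraries of 13D lie between 12.6 and 24.3 and those of 26D between 1.80 and 6.93, while in FAM32A a library of 1D at 33.5 comes close to the lowest of 13D at 35.8.

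The next 6 by ratio had means at 13D of 1.79 to 1.87 times the higher other stage. FAM32A had 15.5, 8.58 and 33.5 scaled TPM at 1D, 39.1, 57.4 and 35.8 at 13D and 31.7, 24.998 and 14.0 at 26D, so that 1D replicate 3 came close to 13D and 1D replicate 2 was the lowest of all 9. DOP1B, which acts in traffic between endosomes and the Golgi, had 22.7, 21.4 and 17.6 scaled TPM at 1D, 40.1, 35.9 and 45.0 at 13D and 22.8, 21.5 and 23.2 at 26D. Its margin of 1.54 between the lowest library of 13D and the highest other library was among the 3 widest, and the libraries of 1D and 26D lay at nearly the same level. NUCKS1, NCAPH, CLSPN and CBX6 belong to the functional groups that follow.

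The members are grouped in what follows by hand, by their known functions and after their values were seen, so that the size of a group is no result and is not that of a fixed list. Of the members 8 act in mitosis and the division of the cell, with log2 ratios of 0.52 to 0.87, and in all 8 the lowest of the 9 libraries was 1D replicate 2. NCAPH, a subunit of the condensin complex that compacts chromosomes, had the highest ratio of these and 12.7, 10.2 and 19.1 scaled TPM at 1D, 27.5, 28.9 and 30.2 at 13D and 16.5, 18.2 and 12.6 at 26D. The libraries of 13D lay within a narrow band (28.9 ± 1.34), well above the highest other library at 19.1. CENPF, a kinetochore protein, had 44.5, 28.5 and 43.9 scaled TPM at 1D, 66.0, 68.1 and 53.0 at 13D and 34.2, 45.8 and 31.5 at 26D. TPX2, which builds the spindle and activates Aurora A kinase, had 39.5, 20.0 and 53.0 scaled TPM at 1D, 64.3, 62.1 and 60.0 at 13D and 43.5, 49.0 and 37.7 at 26D. CKAP5, a microtubule polymerase of the spindle, had 48.5, 32.5 and 55.8 scaled TPM at 1D, 84.6, 90.0 and 77.1 at 13D and 50.3, 69.3 and 47.9 at 26D. In these 3 abundant mRNAs the libraries of 1D and 26D overlapped and 13D was at least 1.43 times the higher of their means. MYBL2, the transcription factor that turns on genes of mitosis, had 10.9, 6.50 and 18.7 scaled TPM at 1D, 25.1, 32.2 and 29.1 at 13D and 21.99, 24.9 and 12.03 at 26D. Here 26D replicate 2 nearly reached the lowest library of 13D, with a margin of 1.01. RACGAP1, part of the complex that sets the plane of cytokinesis, had 11.8 ± 5.48 scaled TPM at 1D, 19.8 ± 3.55 at 13D and 11.2 ± 1.88 at 26D. ERCC6L, a DNA translocase on the fine bridges of anaphase, had 10.3 ± 3.71 scaled TPM at 1D, 17.0 ± 0.992 at 13D and 11.6 ± 3.05 at 26D. ESCO2, which acetylates cohesin so that sister chromatids hold together, had 8.25 ± 4.74 scaled TPM at 1D, 16.3 ± 2.67 at 13D and 11.1 ± 0.741 at 26D. For RACGAP1 the mean at 1D was above that at 26D, and for ERCC6L and ESCO2 it was below.

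Another 10 members encode proteins of centrosomes, centrioles or cilia, with log2 ratios of 0.52 to 0.75. SASS6, which forms the cartwheel on which a new centriole is built, had 19.3, 17.1 and 27.7 scaled TPM at 1D, 48.2, 50.3 and 39.8 at 13D and 36.4, 31.4 and 16.4 at 26D. STIL, its partner in centriole duplication, had 4.72, 2.82 and 4.10 scaled TPM at 1D, 5.53, 6.70 and 7.16 at 13D and 3.54, 5.43 and 4.43 at 26D. CEP250, which links the paired centrioles, had 3.69, 2.48 and 3.96 scaled TPM at 1D, 5.48, 7.41 and 4.26 at 13D and 3.63, 2.63 and 3.39 at 26D. SASS6 was several times more abundant than STIL and CEP250, and its library of 26D replicate 3 was the lowest of all 9. CEP112, a further centrosomal protein, had 26.3, 18.5 and 30.7 scaled TPM at 1D, 54.4, 68.2 and 41.5 at 13D and 36.1, 40.5 and 27.6 at 26D. IFT56 and IFT140 carry cargo along cilia as parts of separate transport complexes. IFT56 had 5.03, 5.20 and 5.21 scaled TPM at 1D, 9.07, 7.84 and 7.68 at 13D and 4.27, 6.55 and 4.41 at 26D, and its 3 libraries of 1D differed by a CV of only 1.96%. IFT140 had 6.05, 3.74 and 5.63 scaled TPM at 1D, 9.96, 9.78 and 6.99 at 13D and 4.98, 6.47 and 5.43 at 26D. Both had about the same level, and in both the libraries of 1D and 26D overlapped. MPHOSPH9, a centriolar protein that holds back the growth of cilia, had 8.66 ± 1.67 scaled TPM at 1D, 14.9 ± 1.76 at 13D and 10.1 ± 1.56 at 26D. CFAP61 and ROPN1L belong to the moving axoneme of cilia and flagella, and both were rare. CFAP61 had 1.45 ± 0.709 scaled TPM at 1D, 2.80 ± 0.298 at 13D and 1.89 ± 0.5004 at 26D. ROPN1L had 3.47 ± 0.4298 scaled TPM at 1D, 5.21 ± 0.159 at 13D and 3.44 ± 0.752 at 26D. DZANK1, known from cilia of the zebrafish eye, had 2.34 ± 0.986 scaled TPM at 1D, 4.26 ± 0.747 at 13D and 2.48 ± 0.828 at 26D.

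DNA replication and repair held 11 members, with log2 ratios of 0.50 to 0.88, and 1D replicate 2 was again the lowest library for all 11. NUCKS1, an abundant chromatin protein with a part in homologous recombination, was the most abundant member of all and had 169.9, 105 and 196 scaled TPM at 1D, 296, 351 and 219.6 at 13D and 165, 157 and 124 at 26D. CLSPN, the adaptor that activates the replication checkpoint kinase, had 9.08, 3.996 and 8.49 scaled TPM at 1D, 13.1, 15.96 and 11.4 at 13D and 6.13, 9.73 and 6.42 at 26D. For both, 13D was 1.82 to 1.84 times the higher other mean, and the means at 1D and 26D were within 1 SD of each other. BRCA1 and BRCA2 act in homologous recombination. BRCA1 had 15.8, 6.13 and 15.5 scaled TPM at 1D, 25.5, 24.9 and 19.1 at 13D and 16.2, 17.1 and 11.3 at 26D. BRCA2 had 25.3, 13.7 and 17.8 scaled TPM at 1D, 55.5, 47.0 and 53.4 at 13D and 44.4, 37.8 and 27.5 at 26D. In BRCA2 all 3 libraries of 26D were above those of 1D, in BRCA1 the 2 stages overlapped, and this difference between the genes was not tested. DNA2, a nuclease and helicase that trims DNA ends, had 22.2, 10.04 and 17.3 scaled TPM at 1D, 33.8, 33.6 and 37.8 at 13D and 19.8, 31.4 and 15.1 at 26D. MCM8, a helicase that works with recombination, had 8.64 ± 3.57 scaled TPM at 1D, 18.4 ± 0.675 at 13D and 12.5 ± 3.10 at 26D. RTEL1, a helicase of telomeres, had 5.57 ± 2.20 scaled TPM at 1D, 9.04 ± 1.15 at 13D and 5.82 ± 1.19 at 26D. In DNA2 the library of 26D replicate 2 came close to 13D, while the other 2 of that stage lay within the range of 1D. RIF1, which sets the timing of replication and protects broken ends, had 10.9 ± 3.63 scaled TPM at 1D, 16.6 ± 1.08 at 13D and 10.9 ± 2.97 at 26D. DONSON, a part of the replication fork, had 8.73 ± 3.27 scaled TPM at 1D, 13.4 ± 1.51 at 13D and 9.23 ± 2.47 at 26D. In both, the means at 1D and 26D were within 1 SD of each other. DTL, which marks a replication licensing factor for destruction, had 7.98, 2.21 and 6.78 scaled TPM at 1D, 10.2, 8.25 and 10.4 at 13D and 5.86, 8.002 and 6.23 at 26D. RECQL5, a helicase of the RecQ family, had 6.95, 5.20 and 9.42 scaled TPM at 1D, 10.5, 10.7 and 10.9 at 13D and 5.52, 10.04 and 6.996 at 26D. In RECQL5 the libraries of 13D differed by a CV of 1.65%, the smallest spread at 13D of all members, and the lowest of them was 1.05 times 26D replicate 2.

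Chromatin and transcription held 8 members. AFF2, a nuclear protein of the family that supports transcript elongation, was among the 3 members over 100 scaled TPM and had 72.5, 67.4 and 91.4 scaled TPM at 1D, 156, 203 and 160.2 at 13D and 117, 126 and 83.5 at 26D. RBBP4, a histone chaperone shared by several chromatin complexes, was another and had 73.5, 30.2 and 72.2 scaled TPM at 1D, 127, 103 and 81.6 at 13D and 62.7, 77.1 and 47.5 at 26D. In AFF2 the lowest library of 13D was 1.23 times the highest other library, and in RBBP4 it was 1.06 times. RBBP6, a ubiquitin ligase that shares the name stem with RBBP4, had 13.3, 13.9 and 13.0 scaled TPM at 1D, 23.8, 26.6 and 22.5 at 13D and 10.9, 20.1 and 14.1 at 26D. CBX6, a Polycomb protein, had 15.02, 14.0 and 20.6 scaled TPM at 1D, 26.9, 40.1 and 21.8 at 13D and 9.39, 18.8 and 12.8 at 26D. It was the member of this group with the highest ratio (0.84), and its mean at 26D was below that at 1D. GFI1, a repressor in developing lymphocytes and granulocytes, had 3.65, 2.67 and 3.14 scaled TPM at 1D, 6.76, 9.39 and 8.46 at 13D and 4.94, 5.25 and 3.99 at 26D. Its 3 stages did not overlap. UHRF1, which carries DNA methylation over to new strands, had 19.7 ± 11.1 scaled TPM at 1D, 34.5 ± 2.67 at 13D and 24.0 ± 6.59 at 26D. The spread of UHRF1 at 1D came with 1D replicate 2 at 7.61 against 22.01 and 29.4 scaled TPM. TAF15, an RNA-binding protein, had 31.2 ± 9.26 scaled TPM at 1D, 51.2 ± 9.64 at 13D and 31.6 ± 7.65 at 26D. BRF1, an initiation factor of RNA polymerase III, had 15.03 ± 5.91 scaled TPM at 1D, 29.9 ± 4.57 at 13D and 19.2 ± 0.877 at 26D. LSM11, which helps to process histone mRNA, had 5.72 ± 1.36 scaled TPM at 1D, 9.15 ± 1.38 at 13D and 5.57 ± 1.58 at 26D.

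Signalling and ubiquitin ligases held 7 members, RBBP6 included, and in all 7 the mean at 26D was above that at 1D. APBB1IP, which couples the small GTPase Rap1 to integrins in lymphocytes, had 14.0, 11.3 and 15.5 scaled TPM at 1D, 33.5, 43.0 and 30.5 at 13D and 18.5, 25.8 and 30.0 at 26D. FBXO45, the substrate receptor of a ubiquitin ligase, had 17.9, 15.5 and 19.6 scaled TPM at 1D, 38.2, 42.4 and 38.7 at 13D and 26.7, 33.0 and 23.9 at 26D. In both the libraries of 26D lay above those of 1D and below those of 13D. CAMKK2, a calcium-dependent kinase, had 11.1, 4.91 and 18.2 scaled TPM at 1D, 21.0, 24.0 and 26.3 at 13D and 13.8, 21.0 and 13.2 at 26D. It had the narrowest margin of the set, since 26D replicate 2 and 13D replicate 1 were nearly equal. FBXW11, which recognises phosphorylated proteins such as beta-catenin for destruction, had 19.2 ± 2.02 scaled TPM at 1D, 31.4 ± 6.08 at 13D and 21.9 ± 3.06 at 26D. MAPK6, an atypical MAP kinase, had 30.5 ± 7.42 scaled TPM at 1D, 47.0 ± 7.56 at 13D and 31.5 ± 5.75 at 26D. TNIK, a kinase of the Wnt pathway, had 5.54 ± 1.34 scaled TPM at 1D, 10.2 ± 3.05 at 13D and 6.26 ± 0.314 at 26D.

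A further 12 members encode proteins of the cell surface, transport, secretion or metabolism, among them VSIG1, ABCG2, CALCB and DOP1B above. ST8SIA6, a sialyltransferase of the Golgi, had 15.8, 19.4 and 23.1 scaled TPM at 1D, 57.9, 84.7 and 58.4 at 13D and 48.1, 49.1 and 40.6 at 26D. Its libraries of 26D were above all 3 of 1D and below all 3 of 13D. SLC12A4, a cotransporter of potassium and chloride, had 52.7, 37.4 and 64.8 scaled TPM at 1D, 95.4, 105 and 76.2 at 13D and 54.8, 74.4 and 57.3 at 26D. Here 26D replicate 2 nearly reached 13D replicate 3. GDPD1, an enzyme of lysophospholipids, had 11.48, 12.2 and 9.71 scaled TPM at 1D, 26.9, 26.9 and 25.8 at 13D and 15.5, 19.1 and 13.4 at 26D. The libraries of 13D were nearly equal, and the stages did not overlap. PCOLCE2, an enhancer of procollagen processing, had 9.82 ± 4.12 scaled TPM at 1D, 21.8 ± 4.84 at 13D and 12.6 ± 2.48 at 26D. XPO7, an exporter of nuclear proteins, had 28.7 ± 9.68 scaled TPM at 1D, 51.8 ± 6.05 at 13D and 34.8 ± 6.69 at 26D. GALNT12, which starts mucin-type sugar chains, had 12.9 ± 3.42 scaled TPM at 1D, 19.1 ± 3.13 at 13D and 13.0 ± 3.10 at 26D. The 3 libraries of 13D had more PCOLCE2 than those of 1D, as the rule requires of a member. The summed markers of extracellular matrix, which the rule did not choose, were lower at 13D than at 1D. DHCR7, the last enzyme of cholesterol synthesis, had 7.20 ± 3.31 scaled TPM at 1D, 11.51 ± 1.249 at 13D and 6.54 ± 1.93 at 26D. NDUFAF7, an assembly factor of respiratory complex I, had 11.48 ± 2.20 scaled TPM at 1D, 19.0 ± 0.804 at 13D and 12.8 ± 1.97 at 26D.

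The remaining 11 members were put in none of these groups. They are MAP7D3, FAM32A, NIBAN1, NKTR, RFLNA, 4 genes with a LOC symbol and 2 with an NCBI gene ID alone. The gene with NCBI gene ID 102096346 was among the 8 members with the highest mean at 13D and had 44.8, 42.3 and 53.3 scaled TPM at 1D, 61.0, 73.1 and 66.6 at 13D and 22.1, 54.3 and 43.0 at 26D. Its library of 26D replicate 1 was the lowest of all 9 by far. RFLNA had 4.86, 3.18 and 3.59 scaled TPM at 1D, 11.9, 11.6 and 13.1 at 13D and 7.91, 10.7 and 5.88 at 26D, and its stages did not overlap. NIBAN1 had 16.3 ± 1.82 scaled TPM at 1D, 31.5 ± 3.11 at 13D and 19.9 ± 6.80 at 26D. NKTR had 14.7 ± 1.80 scaled TPM at 1D, 21.5 ± 2.05 at 13D and 14.8 ± 1.22 at 26D. LOC102090750, LOC102086774, LOC102093541 and LOC102092327 had means at 13D of 8.75 to 33.9 scaled TPM, and GeneID:102098633, the last of the 11, had 2.20 ± 0.330 scaled TPM at 1D, 3.58 ± 0.865 at 13D and 2.31 ± 0.509 at 26D.

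The counts of calls against the neighbouring stages describe the choice of members. An mRNA was called when limma on log2(scaled TPM + 0.5), fitted over all 13072 mRNAs with the 6 libraries of both stages, put its adjusted p (Benjamini-Hochberg) below 0.05 with a log2 fold change beyond 1 in size. In 13D vs. 1D, 1252 mRNAs were called (9.58%), 258 of them higher at 13D (1.97%) and 994 lower (7.60%). Of the 67 members 21 were called, all higher at 13D, and the median log2 fold change of the members was 0.87 against 0.00 for all mRNAs. In 26D vs. 13D, limma called 0 mRNAs (0%) and 0 members, while 872 mRNAs and 62 members had an unadjusted p under 0.05. The edgeR test of the authors, with the same thresholds, did call some mRNAs between these stages. The paper names VSIG1 among the genes that differed in each of its comparisons of stages. The smallest adjusted p from limma was 0.122 over all mRNAs and 0.697 among the members, with log2 fold changes of the members between -2.0 and -0.48. The rule used both contrasts, so that nothing is read from these counts. In 13D vs. 1D the count of members called moved with single libraries. Leaving out a library of 13D gave 9 (replicate 1), 4 (replicate 2) or 9 (replicate 3). Leaving out a library of 1D gave 12, 13 or 29. The TPM as deposited gave 11.

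The comparison of 26D with 1D shows where the mRNAs stood after their peak relative to 1D. It is not free of the rule, which held the libraries of both stages below 13D and so kept out the mRNAs with their peak at 1D or 26D. The values of all mRNAs are printed beside those of the members as the background, the difference between them is set in part by this choice, and the p-values take no account of it. In 26D vs. 1D, 890 mRNAs were called (6.81%), 192 higher at 26D (1.47%) and 698 lower (5.34%). Of the members, VSIG1 and ST8SIA6 were called higher and 0 were called lower. VSIG1 rose by a log2 fold change of 2.32 (SE 0.49, limma adjusted p = 0.0314), and 3 of 3 libraries of 26D were above those of 1D. ST8SIA6 rose by 1.23 (SE 0.21, limma adjusted p = 0.0194), likewise in 3 of 3 libraries. At an unadjusted p under 0.05, 8 members were higher at 26D and 0 were lower, where 10.4% of all mRNAs were higher and 16.7% lower. With 2 of 67 called, the share of members called higher was 2.99%. For VSIG1 the libraries of 1D at 0.217 and 0.117 scaled TPM lie under the added 0.5, so that the fold change on this scale understates the ratio of the means.

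All 3 libraries of 26D were above all 3 of 1D for 10 members, or 14.9%, against 14.6% of all mRNAs. These were VSIG1, ABCG2, MAP7D3, GFI1, GDPD1, RFLNA, ST8SIA6, APBB1IP, FBXO45 and BRCA2. For 0 members were all 3 libraries of 26D below those of 1D. The share of all mRNAs was 18.1%, but it includes mRNAs high at 1D, which the rule kept out, and nothing is read from the 0. After VSIG1 and ST8SIA6 the largest log2 fold changes among the 10 were 0.97 for RFLNA (SE 0.30, limma adjusted p = 0.0886), 0.95 for BRCA2 (SE 0.28, limma adjusted p = 0.0783) and 0.82 for APBB1IP (SE 0.25, limma adjusted p = 0.0787), none of which passed the test. The log2 fold changes of all members ranged from -0.32 to 2.32 with a median of 0.20, against a median of 0.02 for all mRNAs, and 55 members were above 0 on this log2 scale, against 51.3% of all mRNAs. The mean at 26D was within 1.2 times that at 1D for 36 members and over 1.5 times it for 9. The shares of all mRNAs were not computed for these limits and the rule held both means below 13D, so that nothing is read from these counts. Both calls were lost when 1D replicate 1, 26D replicate 1 or 26D replicate 2 was left out, which left 18, 24 and 9 calls among all mRNAs. ST8SIA6 alone was called when 1D replicate 2 or 1D replicate 3 was left out. With the TPM as deposited VSIG1 alone was called and 8 members were above 0, where the median of all mRNAs was -0.52 and that of the members -0.38.

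**Figure D3:**
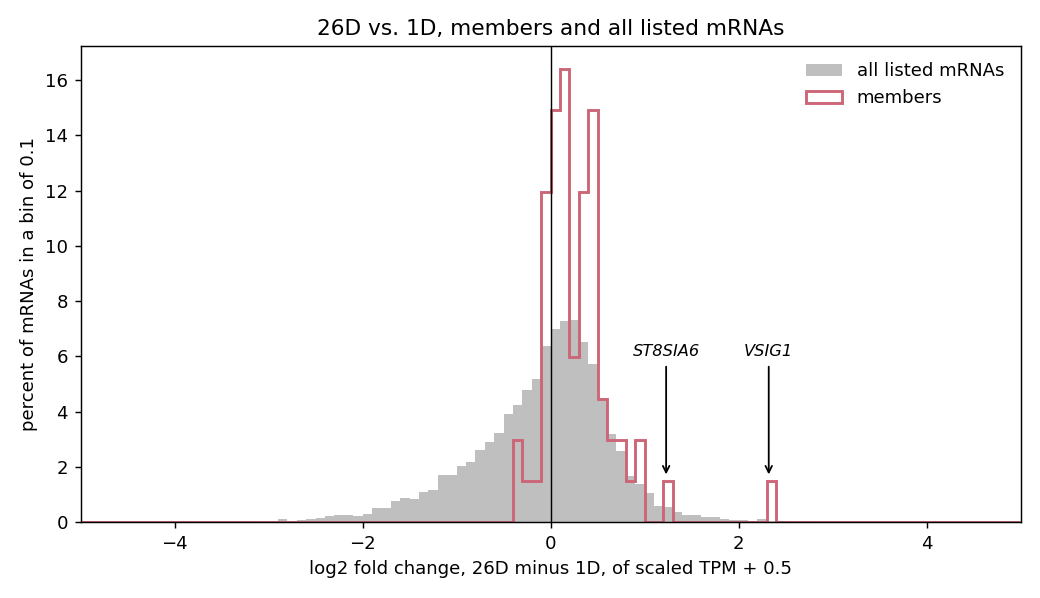
Distribution of the log2 fold change of 26D over 1D, on log2(scaled TPM + 0.5), for all 13072 mRNAs (grey) and the 67 members (red outline), as a percent of mRNAs in bins of 0.1. The lowest value of a member is -0.32, and the tail of mRNAs lower at 26D includes those high at 1D, which the rule kept out. The arrows mark the called members ST8SIA6 at 1.23 and VSIG1 at 2.32.

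Genes of the same pathways were examined in lists fixed by name. The mitosis list had 29 listed genes, of which CENPF, MYBL2 and TPX2 were members. For 6 of the 29 the libraries of 13D were above the other 6, where the share of all mRNAs was 1.90%. For 24 the mean was highest at 13D, or 82.8%, against 27.1% of all mRNAs. Members meet both conditions by the rule. Of the mRNAs with a mean of at least 2 TPM, 2.23% met the first condition and 31.0% the second. The median log2 ratio of the list was 0.27, against -0.27 for all mRNAs. With CENPF, MYBL2 and TPX2 left out, the libraries of 13D were above the other 6 for 3 of 26 genes. Of these 26 genes, 21 (80.8%) had their highest mean at 13D, and the median log2 ratio was 0.205. In the list of DNA replication and repair, BRCA1 and BRCA2 were members and 5 of 29 genes did not overlap. Of the 29, 21 (72.4%) had their highest mean at 13D, and the median log2 ratio was 0.18. Without the members, 3 of 27 genes did not overlap (11.1%), 19 (70.4%) had their highest mean at 13D and the median was 0.172. In 13D vs. 1D, 7 genes of the mitosis list and 4 of the replication and repair list were called higher, or 6 and 3 without the members. The calls lower were 0, and 1.97% of all mRNAs were called higher. No gene of either list was called in 26D vs. 1D, where 6.81% of all mRNAs were called. In 26D vs. 13D limma called 0 of all mRNAs, so that nothing is read from the lack of calls in the lists. The lists were chosen with earlier results of these data known, and the counts are descriptions.

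**Figure D4:**
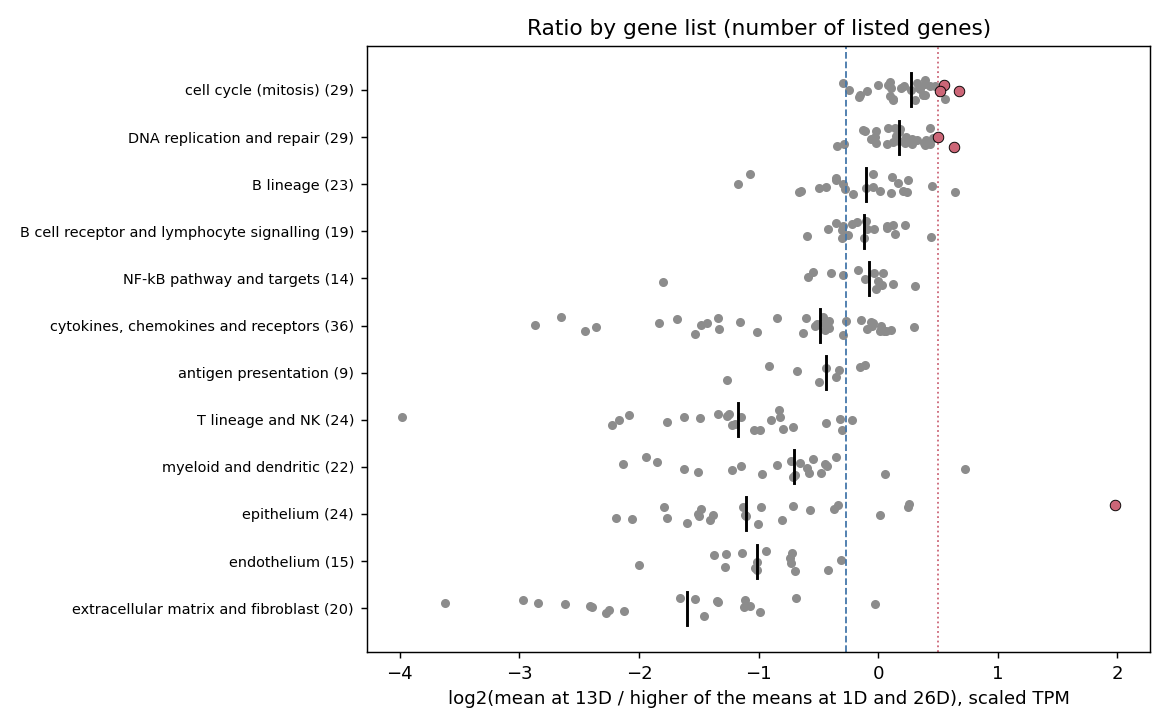
Log2 ratio of the mean at 13D to the higher of the means at 1D and 26D for the genes of 12 fixed lists, with the number of listed genes in brackets. Grey points are genes, red points are members, black bars are medians of a list, the dashed line is the median of all mRNAs (-0.27) and the dotted line the limit of 0.5 for members. The medians of mitosis (0.27) and of replication and repair (0.18), members included, are the only ones above 0. Points to the right of the limit that are not red failed another condition of the rule.

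Without their members, the sums of both lists overlapped between 13D and 26D. The 26 other mitosis genes summed to 1240, 891 and 1721 scaled TPM at 1D, 2181, 2371 and 2538 at 13D and 2716, 2109 and 1403 at 26D. The 27 other genes of replication and repair summed to 999.7, 559 and 1288 at 1D, 1584, 1635 and 2051 at 13D and 2011, 1773 and 1231 at 26D. In both sums 26D replicate 1 was within or above the range of 13D and 26D replicate 3 within that of 1D. The members summed to 1276, 891 and 1463 at 1D, 2325, 2591 and 2103 at 13D and 1396, 1646 and 1247 at 26D, where all 3 libraries of 26D were below 13D as the rule requires. Examples outside the set are KIF11, a spindle motor with 128 ± 30.6 scaled TPM at 1D, 279 ± 18.2 at 13D and 201 ± 33.8 at 26D, and PCNA, the clamp of DNA polymerase, with 211 ± 113 at 1D, 337 ± 118 at 13D and 368 ± 122 at 26D.

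**Figure D5:**
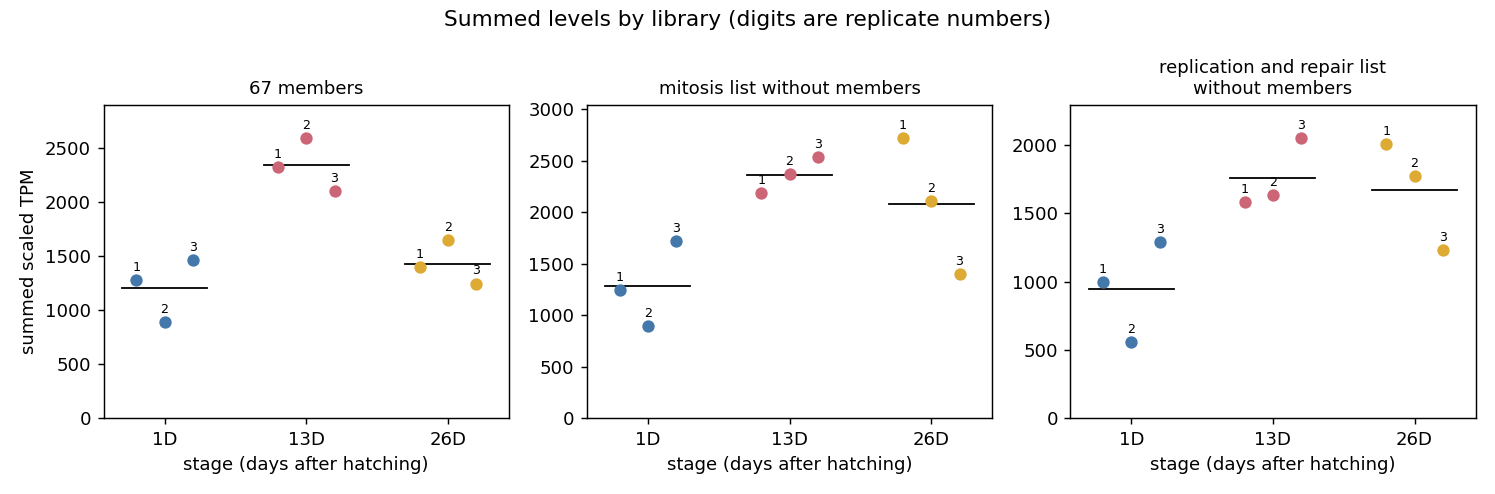
Summed scaled TPM by library for the 67 members, the 26 mitosis genes and the 27 genes of DNA replication and repair that are not members, by stage in days after hatching. Points are libraries, digits are replicate numbers and bars are means of 3 libraries. The members lie at 1247 to 1646 in the 3 libraries of 26D, below 13D as the rule requires. The mitosis genes spread from 1403 to 2716 there. Their panel leaves out the genes that met the rule, so that this difference is set in part by the choice.

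Of the 23 lists fixed, 20 held no member. Members are 0.51% of all mRNAs, so that nothing is read from a list without one. The 23 listed B lineage genes, the 19 of B cell receptor signalling and the 14 of the NF-kB pathway held 0 members. Their median log2 ratios were -0.10, -0.12 and -0.07. The mean was highest at 13D for 39.1%, 31.6% and 35.7% of them, against 27.1% of all mRNAs. Among the mRNAs with a mean of at least 2 TPM this share was 31.0%. BACH2 of the B lineage list had a log2 ratio of 0.65, above the limit. It was left out because 26D replicate 2 at 33.1 scaled TPM stood above the lowest library of 13D at 29.1. Of the 11 lists of cell type markers only that of epithelium held a member, VSIG1. VSIG1 was also the only gene of this list whose 13D libraries stood above the other 6, and 4 of its 24 listed genes had their highest mean at 13D. The list had a median log2 ratio of -1.11, and 8 of the 24 were called lower and 2 higher in 13D vs. 1D, where 7.60% of all mRNAs were called lower and 1.97% higher. Its summed scaled TPM was 833, 963 and 467 at 1D, 435, 508 and 512 at 13D and 494, 435.5 and 427 at 26D.

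Libraries contributed unequally. The level was highest in 13D replicate 2 for 36 members, in 13D replicate 1 for 20 and in 13D replicate 3 for 11. Of the mRNAs over 0.5 TPM in all libraries, 33.8%, 28.6% and 37.6% had their highest level of this stage in these libraries. Within 1D, replicate 2 was the lowest library for 52 members, where the same held for 36.6% of these mRNAs. The sums of the mitosis and of the replication and repair genes outside the set were also lowest in that library. The paper lists 1D replicate 2 with the lowest share of mapped reads and the fewest mapped reads of all libraries. What this contributes to its low levels was not tested. Within 26D, replicate 2 was the highest for 46 members, against 30.0% of these mRNAs. The median CV of the members was 26.5% at 1D, 13.8% at 13D and 21.9% at 26D, with extremes of 106% for VSIG1 at 1D and 77.2% for CALCB at 26D. The lower spread at 13D was not particular to the members. Their median SD of log2(scaled TPM + 0.5) was 0.377 at 1D, 0.199 at 13D and 0.289 at 26D. For the other mRNAs with a mean of at least 2 TPM it was 0.330, 0.214 and 0.301. Leaving out 1D replicate 2 lowered the number of members above 0 in 26D vs. 1D from 55 to 38.

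The members were not next to one another in the annotation. For the 65 with a place in RefSeq, 85 neighbouring mRNAs were listed, and 0 of them were members. The libraries of 13D were above the other 6 for 3 of the neighbours, RUFY2 beside DNA2, ANAPC5 beside CAMKK2 and ANKS6 beside GALNT12, with log2 ratios of 0.32, 0.24 and 0.26, and for 1.90% of all mRNAs. The mean was highest at 13D for 35.3% of the neighbours, against 27.1% of all mRNAs. Of the 5 annotated lncRNAs next to a member, 4 had their highest mean at 13D, against 29.2% of annotated lncRNAs, and for LOC110364372 and LOC110362885 that mean was only 0.1008 and 0.0904 scaled TPM. In 0 of the 5 did the libraries of 13D stand above the other 6. Beside STIL, LOC110365609 had 1.49, 1.03 and 2.102 scaled TPM at 1D, 1.82, 2.39 and 1.90 at 13D and 1.19, 2.5 and 1.55 at 26D, so that the stages overlapped.

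The membership depended on the scaling. With the TPM as deposited the same rule chose 118 mRNAs, among them 19 of the 67 (28.4%), and with median-of-ratios factors it chose 60, among them 56 (83.6%). VSIG1, ABCG2, CALCB, MAP7D3, NCAPH, DOP1B, GFI1, GDPD1, SASS6, AFF2, MYBL2, ST8SIA6, FBXO45, BRCA2, RFLNA, CAMKK2, BRF1, CFAP61 and LOC102090750 were chosen under all 3 scalings. For the runs with a library left out, the limit of 150 mRNAs was lifted. The rule then kept between 46 members (without 26D replicate 3) and 67 (without 26D replicate 2). The number it chose then moved between 52 (without 26D replicate 3) and 198 (without 13D replicate 3), and without 13D replicate 1, 26D replicate 1 or 26D replicate 2 it was 106, 106 and 192. The members were 88.5% of the 52, 30.8% of the 198 and 34.9% of the 192.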

How the data were processed

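The authors used STAR 2.6.0c for mapping to Cliv_1.0, Cufflinks 2.1.1 and TACO for the transcript assembly and Kallisto for quantification. The deposited values are TPM, in a table of mRNAs (over 0.5 TPM somewhere) and a table of lncRNAs (over 0.1 TPM somewhere). Per library, both tables together add up to 991214 to 997459 TPM. The edgeR test of the authors needs counts, which TPM do not hold, so the depth per value is unknown.

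TPM were divided by the library median over the 10027 mRNAs above 0.5 TPM in all 9 libraries. The quotients were multiplied by the mean of the 9 medians (13.6). A fit on the deposited TPM would take a common factor of a library as a change of each mRNA. Whether the medians reflect such a factor was not tested. Stages were compared with limma 3.58.1 (R 4.3.3, eBayes with trend) on log2(scaled TPM + 0.5), with the 6 libraries of both stages, no covariate and the thresholds of the study. Prior degrees of freedom lay between 3.43 and 4.44 for the 3 comparisons, beside 4 residual ones. The code of the fit and of the rule was run on simulated data with larger changes than most members had. These runs do not show how the fit and the rule behave with changes as small as those of most members. Figures were drawn with Python 3.11.15, pandas 2.3.3 and matplotlib 3.10.9.

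The members, gene lists and tests were chosen with earlier results of these data known. Genes named by rule were the 10 highest ratios, the 8 highest means at 13D, members called in 26D vs. 1D, the 3 members inside and 3 mRNAs outside the ratio limit, members of fixed lists and members with a shared symbol stem, 28 members in all. Other members were named by function after their values were seen. Symbols were matched by NCBI gene ID to RefSeq for bColLiv1.pat.W.v2, another build than that of the values with 12387 of 13072 mRNAs, 65 of 67 members, and RefSeq was used for names and neighbours only. The lncRNA table was used for neighbours and library facts. Sequences, promoter motifs and reads were not analysed here. Alternatives were the TPM as deposited, median-of-ratios factors, pseudocounts of 0.1 and 1, a filter of 0.5 TPM in at least 3 libraries, eBayes without trend, 9 libraries in a single fit, no fold change threshold, the replicate number as a block, each library left out, and for the rule a mean of at least 5 TPM and 0.1 added to each mean.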

Additional observations from a re-analysis of the deposited data

How the results depend on the processing

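The counts of members called moved by more than 1.5 times under the TPM as deposited, the block and single libraries left out, and the count kept by the rule under the TPM as deposited. With the TPM as deposited 13D vs. 1D had 11 members called instead of 21, 26D vs. 1D had 1 instead of 2, and the rule kept 19 of 67. With a library left out 13D vs. 1D had 4 to 29 calls, and 26D vs. 1D had 0 to 2. The cause was not tested, though such fits hold 5 libraries. In 26D vs. 13D limma called 0 members in all settings. Fits with an arm of 2 libraries share the spread with the other arm.

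The replicate numbers do not pair the squabs. The deviations of same-numbered libraries from their stage means had correlations of -0.26, -0.30 and -0.24 for 26D vs. 1D. Libraries with different numbers had 0.000769 to 0.28 there. For 13D vs. 1D the same-numbered libraries had 0.42, -0.22 and 0.11, and for 26D vs. 13D they had -0.096, 0.32 and -0.006. The sign was thus the same for all numbers in 26D vs. 1D alone, and the cause was not tested. With the number as a block, 26D vs. 1D had 0 members called, and 13D vs. 1D had 16.

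For the 28 named members the log2 fold change of 26D vs. 1D was recomputed in each setting. It kept its direction and its side of the threshold in 337 values, lost the call in 11 (VSIG1 or ST8SIA6) and changed sign in 44, in members that were not called. With the TPM as deposited, where the median of all mRNAs was -0.52, it was -0.14 for CALCB, -0.19 for MAP7D3, -0.21 for FAM32A, -0.43 for NCAPH, -0.50 for CLSPN, -0.49 for DOP1B, -0.16 for AFF2, -0.47 for RBBP4, -0.35 for SLC12A4, -0.34 for CKAP5, -0.22 for DTL, -0.53 for RECQL5, -0.29 for BRCA1, -0.33 for TPX2, -0.50 for RBBP6, -0.17 for CEP112 and -0.44 for IFT140. With median-of-ratios factors it was -0.01 for CLSPN and -0.04 for RECQL5. With a library left out it ranged from -0.09 to 0.56 for BRCA1, -0.11 to 1.15 for CALCB, -0.27 to 0.05 for CENPF, -0.23 to 0.07 for CEP250, -0.26 to 0.29 for CLSPN, -0.14 to 0.69 for DTL, -0.03 to 0.92 for FAM32A, -0.59 to 0.05 for GeneID:102096346, -0.05 to 0.26 for IFT140, -0.22 to 0.06 for IFT56, 0.00 to 0.43 for NCAPH, -0.31 to 0.14 for NUCKS1, -0.25 to 0.39 for RBBP4, -0.11 to 0.32 for RBBP6, -0.16 to 0.26 for RECQL5 and -0.08 to 0.61 for TPX2. Groups of 3 libraries are too small for a check of single outlying libraries.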
